A study of Mus musculus with 8 samples.

Results

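Lysosomal enzymes and membrane proteins were described through 33 genes taken from a fixed list, 33 of 54749 genes to which a deposited transcript could be mapped. Its rule uses gene names and no measured value. It holds 9 cathepsins and other peptidases, 8 glycosidases, 7 lipid enzymes and their cofactors, 7 membrane proteins, and the 2 genes Grn and Tfeb, set apart here as regulators. All 33 passed the filter on low counts and were among the 21902 genes tested.

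RNA-seq was carried out on LT-HSCs, long-term hematopoietic stem cells, of bone marrow from mice of 2 genotypes, all 6 months of age, with 1 library per mouse. There were 4 asrij floxed mice, numbered 1, 3, 4 and 5, and 4 asrij KO mice, numbered 2, 3, 4 and 5. The asrij gene is listed as Ociad1. The KO is of the whole body and not limited to blood cells, and the controls carry homozygous floxed asrij alleles (the titles of these samples begin with Wt). The methods give the sort for RNA-seq as LSK CD150+ CD48+ and mice of both genders.

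Lysosomes are acidic organelles that break down proteins, glycans and lipids delivered by endocytosis, phagocytosis and autophagy. Their hydrolases are made in the endoplasmic reticulum, tagged with mannose 6-phosphate in the Golgi and carried to the lysosome by mannose 6-phosphate receptors, while glycosylated membrane proteins line the organelle and carry products out. Lysosomal content and activity are regulated in hematopoietic stem cells, and myeloid cells such as neutrophils and macrophages are rich in lysosomal hydrolases. Transcription factors of the MiT/TFE family, TFEB among them, act on many of these genes through an E-box motif.

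Library totals ranged from 23412829 to 44874882 gene counts, and a member had between 176 and 56481 counts in a library. Levels are given as CPM on TMM-normalized library sizes, comparable between libraries. Ociad1 was at 41.6, 66.9, 36.7 and 31.3 CPM in the floxed libraries and at 15.2, 19.7, 12.5 and 11.7 CPM in the KO libraries (log2 fold change -1.58, SE 0.27, adjusted p = 0.0249, edgeR, up to 0.0881 with single libraries left out), with all KO libraries below all floxed ones. The list of 15 HSC markers, of which 14 were tested, summed to 438 to 973 CPM in floxed and 751 to 945 CPM in KO libraries, with Ly6e alone at 269 to 784 and 565 to 780.5 CPM. Kit was at 51.6 to 60.2 CPM in floxed and 46.8 to 53.2 CPM in KO libraries, and Cd34 at 17.5 to 36.7 and 23.9 to 29.7 CPM. The markers that stayed below 1 CPM in all 8 libraries were 2 of the 15, Procr (0.208 to 0.510 CPM floxed, 0.142 to 0.962 KO) and Hoxb5 (0.0527 to 0.170 and 0 to 0.256), and Fgd5 was at 0.158 to 0.700 and 0.568 to 1.09 CPM. The neutrophil granule gene Ngp stood at 3437 to 18427 CPM in floxed and 7682 to 8860.1 CPM in KO libraries and the haemoglobin gene Hba-a1 at 7132 to 17061 and 38653 to 110964 CPM. LT-HSC is used here as the label of the samples. In bulk RNA, fewer cells of a type and less RNA per cell cannot be told apart.

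The levels of the members spanned a wide range, compared here per kb of spliced transcript. Psap, the precursor of the saposins that help hydrolases reach sphingolipids, had the highest level, with a mean of 486 CPM per kb in floxed libraries and 505 in KO libraries, and made up 25.6% of the summed floxed level per kb of the 33 genes. Ctsd, the aspartic protease cathepsin D, followed with 198 CPM per kb in floxed libraries, then the abundant membrane glycoprotein gene Lamp1 with 117, Grn with 110.0 and Lamp2 with 105. The lowest levels in floxed libraries were those of Gaa (7.29 CPM per kb), Npc1 (6.71), Gla (2.67) and Ctsl (2.51). Of the 32 pairs of neighbours in the floxed order, 5 differed in mean by more than the larger of the 2 SDs, so most of the order within the middle of the range was not resolved. The counts cover introns as well as exons, so a level per kb of spliced transcript is raised for genes with intronic reads. Reads of overlapping genes can also be in these levels. Gm49369 and Grtp1, which overlap Ctsd and Lamp1, had total counts of 91.2% and 73.6% of theirs.

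**Figure D1:**
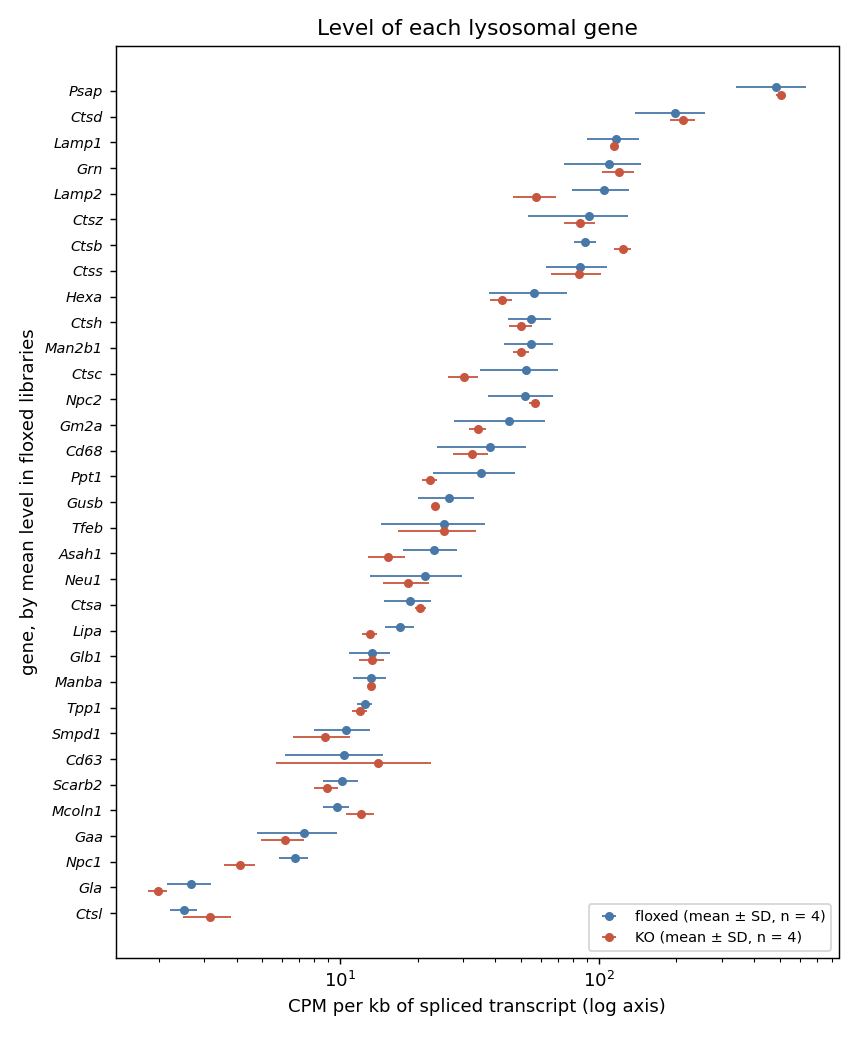
Level of each of the 33 lysosomal genes in CPM per kb of spliced transcript (horizontal log axis), with the mean and SD of 4 floxed libraries in blue and 4 KO libraries in red, ordered by the floxed mean. Psap is at the top with 486 CPM per kb in floxed libraries and Ctsl at the bottom with 2.51; for Lamp2, Npc1, Asah1 and Ctsb the libraries of the 2 genotypes do not overlap.

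Whether KO and floxed LT-HSCs differed in lysosomal genes was tested with edgeR across all genes. No member passed the study's thresholds (adjusted p under 0.05 and absolute log2 fold change above 1.5), which 1.19% of all genes tested passed. By adjusted p alone 0 of 33 members were called in either direction, against 2.97% of all genes. At an unadjusted p under 0.05 there were 7 members, 1 with a positive and 6 with a negative log2 fold change, which is 21.2% of the members against 21.8% of all genes. The log2 fold change, KO over floxed, was below 0 for 22 of the 33 members (66.7%, against 50.4% of all genes), with a median of -0.12 over the members and -0.0058 over all genes. It was between -0.3 and 0.3 in 20 members, and its SE ran from 0.13 to 0.44 with a median of 0.22. For 4 members (12.1%) the KO and floxed libraries did not overlap, against 14.8% of all genes, so by this count the members stood near the background. These were Ctsb with the KO libraries above (7.10% of all genes did so) and Lamp2, Npc1 and Asah1 with the KO libraries below (9.09% of the members, against 7.66% of all genes).

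**Figure D2:**
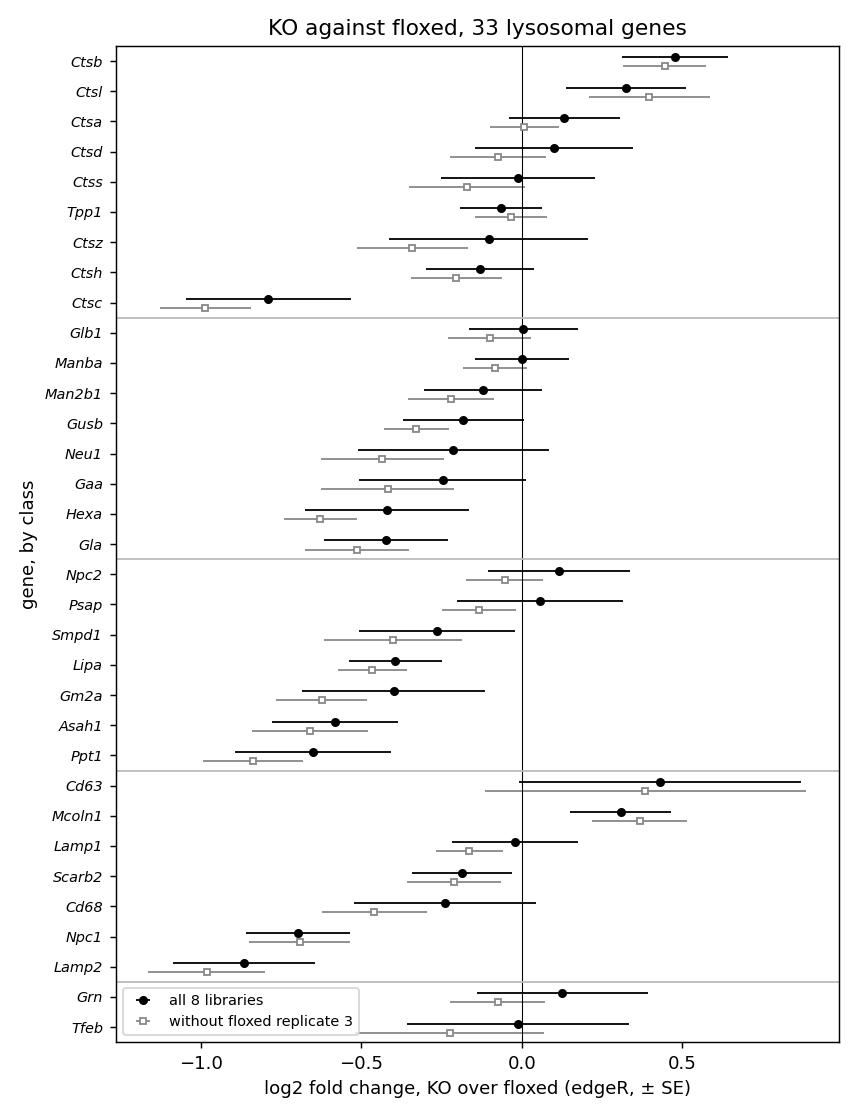
Log2 fold change of KO over floxed with its SE (edgeR) for the 33 genes, grouped by class from top to bottom as cathepsins and peptidases, glycosidases, lipid enzymes and cofactors, membrane proteins, and the 2 regulators. Black circles use all 8 libraries and open grey squares leave out floxed replicate 3; Lamp2 lies lowest among the black circles at -0.87 and Ctsb highest at 0.48.

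One floxed library, replicate 3, stood apart for these genes. It also had the most gene counts of the 8 libraries, 44874882, against 23412829 to 34672846 in the other floxed libraries. The part of this depth in its values was not tested. Floxed replicate 3 was the lowest of the 4 floxed libraries in 27 of 33 members (81.8%, against 32.5% of all genes) and the lowest of all 8 libraries in 20 (60.6%, against 21.1%). Relative to the mean of the other floxed libraries its level had a median of 0.613 over the members, from 0.372 for Ctsz to 1.17 for Ctsl, and it was under 0.75 in 23 of them. The 33 genes together summed to 5316, 3109, 5497 and 5570.4 CPM in floxed replicates 1, 3, 4 and 5 and to 4794, 4603, 4916 and 4823 CPM in KO replicates 2, 3, 4 and 5. Apart from floxed replicate 3, the summed level of every floxed library was therefore above that of every KO library. The neutrophil marker list (13 genes, all of them tested) summed to 48099, 17388, 54767 and 49450.4 CPM in the floxed and 32767, 29618, 25988 and 26218 CPM in the KO libraries. Floxed replicate 3 was lowest of the floxed libraries in 13 of the 13 genes of this list, none of which was at 0. Among the KO libraries the neutrophil sum was highest in replicate 2 and lowest in replicate 4. The sum of the 33 genes was highest in KO replicate 4, within a narrow KO range of 4603 to 4916 CPM. Floxed replicate 3 was also the lowest of all 8 libraries for the summed HSC markers (438 CPM), monocyte and macrophage markers (1158 CPM) and V-ATPase subunits (1083 CPM). By single genes, it was the lowest of all 8 in 4 of 14 tested HSC markers and 4 of 16 monocyte and macrophage markers. For V-ATPase subunits it was so in 11 of 18 tested genes (21.1% of all genes). For the erythroid markers it was instead the highest floxed library (71805 CPM). The monocyte and macrophage list (16 genes) summed to 1158 to 2039.8 CPM in floxed and 1224 to 1387 CPM in KO libraries, and the erythroid list (13 genes) to 28386 to 71805 and 124002 to 296525 CPM. The part of these markers in the values of the lysosomal genes was not tested.

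**Figure D3:**
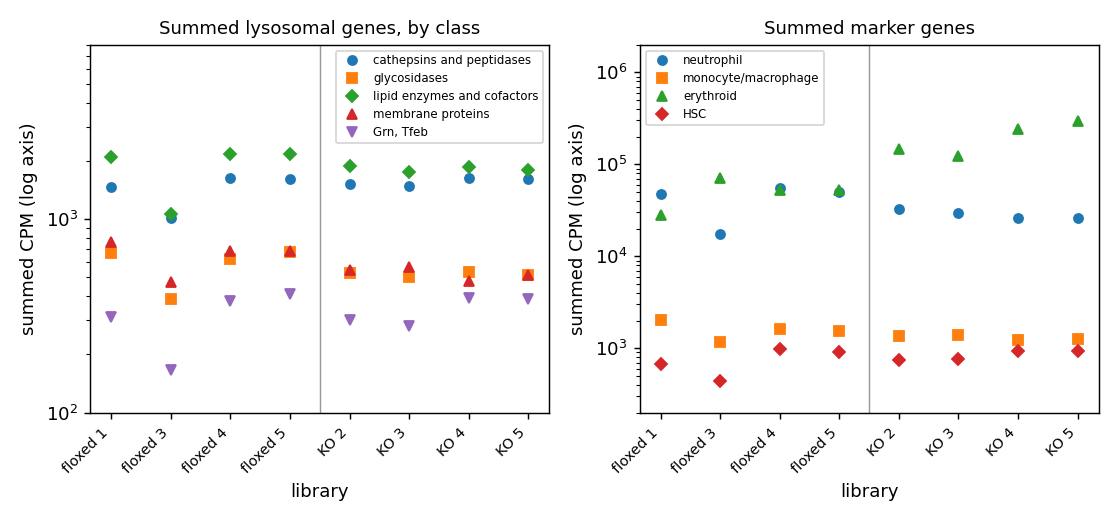
Summed CPM (log axis) in each of the 8 libraries, for the 33 lysosomal genes by class on the left and for marker lists of neutrophils, monocytes and macrophages, erythroid cells and HSCs on the right; each symbol is 1 library and 1 list, and the vertical line parts floxed from KO. Floxed replicate 3 is the lowest library for every lysosomal class and for the neutrophil, monocyte and macrophage, and HSC lists, at 17388 CPM for the neutrophil list.

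Without floxed replicate 3, 9 members were called by edgeR at an adjusted p under 0.05 (27.3%, against 17.5% of all genes), and 0 passed the fold threshold as well (3.88% of all genes did). Ctsb was called higher in KO (8.90% of all genes were), and the 8 called lower were Ctsc, Hexa, Gm2a, Lipa, Ppt1, Asah1, Lamp2 and Npc1 (24.2% of the members, against 8.64% of all genes called lower in that comparison). In 12 members (36.4%, against 14.9% of all genes) every KO library was then below the 3 remaining floxed libraries, and in 2 every KO library was above them (15.5% of all genes). The median log2 fold change of the members was -0.22 without it, while that of all genes was 0.04. Floxed replicate 3 was singled out because it was the lowest floxed library in 81.8% of the members, against 32.5% of all genes. Leaving out the lowest library raises the floxed mean, and so did so more often for members than for all genes. The shares lower in KO in this comparison are therefore not a separate test of the members. Leaving out any other single library gave 0 called members, in fits that called 0.274% to 1.17% of all genes. Other fits to all libraries called few: with DESeq2's size factors in edgeR, and with haemoglobin genes left out, 1 member was called (Npc1, lower; 3.21% and 3.32% of all genes), with the DESeq2 Wald test 3 (11.2% of all genes), with replicates 4 and 5 blocked together 5 (18.5%), and with a replicate block 0 (0.222%). The median coefficient of variation of the members was 24.5% over the 4 floxed libraries, 13.5% without replicate 3, and 10.9% over the 4 KO libraries. Leaving out a library picked as the lowest tends to lower the spread by itself. The same values over all genes were not computed, so the drop cannot be called particular to the members.

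**Figure D4:**
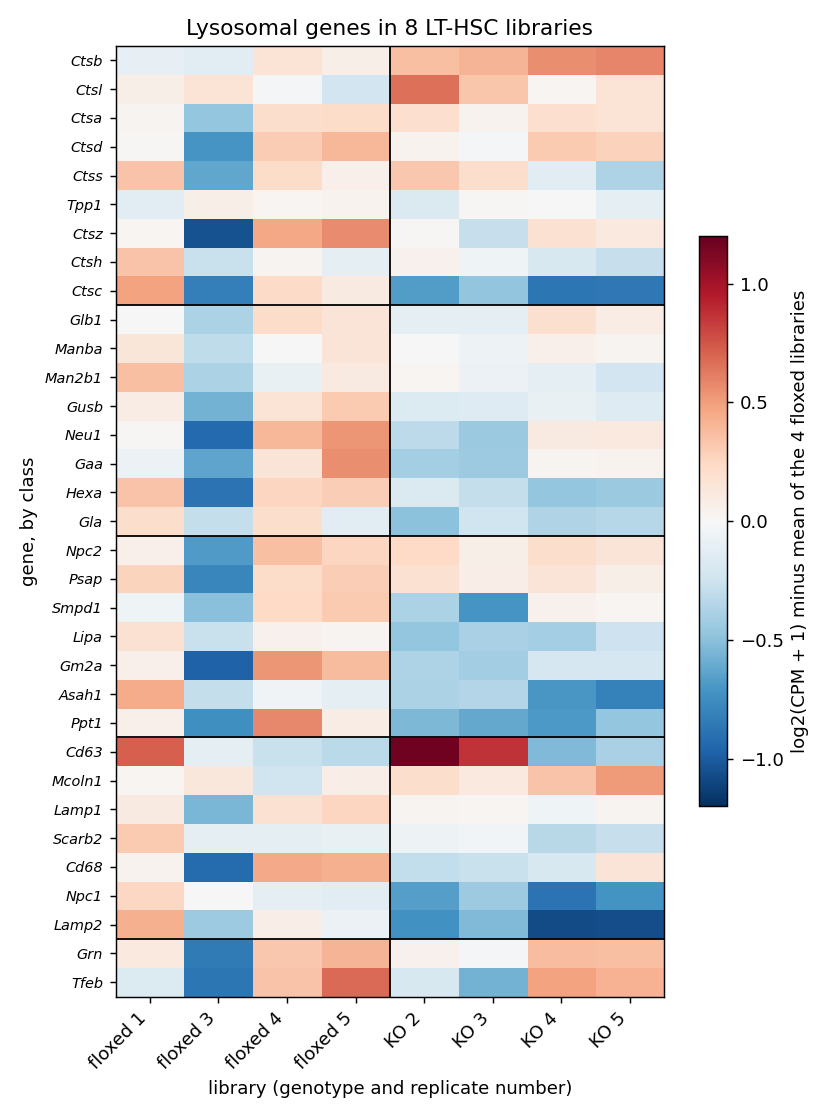
Each row is 1 of the 33 genes, grouped by class, and each column 1 library; colour gives log2(CPM + 1) minus the mean of the 4 floxed libraries, red above and blue below. The column of floxed replicate 3 is blue in most rows, the rows of Lamp2, Npc1 and Asah1 are blue in all 4 KO columns and the row of Ctsb is red in all 4. Other rows do the same although their libraries overlap between genotypes, such as Ctsc and Ppt1 (blue) and Mcoln1 (red).

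The cathepsins and peptidases, which cut proteins inside the lysosome, divided in direction, with 4 log2 fold changes above 0 and 5 below and a median of -0.013. Ctsb (ENSMUSG00000021939.8, chr14:63122462-63145923 in GRCm38) encodes cathepsin B, a cysteine protease with both endopeptidase and carboxypeptidase activity. It was at 392, 385, 471 and 440.5 CPM in floxed replicates 1, 3, 4 and 5 and at 542, 557, 619.7 and 632 CPM in KO replicates 2, 3, 4 and 5. All 4 KO libraries were above all 4 floxed libraries, with means 39.3% apart (log2 fold change 0.48, SE 0.16), but the difference did not pass the correction over all genes (adjusted p = 0.133). It was nearly the same size within replicate numbers 1 to 3 (0.50 on the log2(CPM + 1) scale) and within numbers 4 and 5 (0.46), and no leave-one-out value fell outside 0.45 to 0.54.

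Ctsc (ENSMUSG00000030560.17, chr7:88278085-88310888) encodes cathepsin C, the dipeptidyl peptidase that activates the serine proteases of neutrophil and mast cell granules. Its floxed libraries held 173, 69.8, 145 and 134 CPM and its KO libraries 77.4, 89.0, 67.4 and 67.6 CPM. Floxed replicate 3 lay among the KO libraries and the other 3 floxed libraries lay above all of them (log2 fold change -0.79, SE 0.26, adjusted p = 0.114). Without that library the log2 fold change was -0.99 (adjusted p = 0.00295). The ratio of Ctsb to Ctsc, each per kb of spliced transcript, was 1.19, 2.90, 1.71 and 1.73 in the floxed and 3.68, 3.29, 4.83 and 4.91 in the KO libraries, so the ratio was higher in every KO library; this pair was chosen after its values were seen, and the ratio was not tested.

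The remaining 7 genes of the class had log2 fold changes from -0.13 (Ctsh, an aminopeptidase) to 0.33 (Ctsl, the endopeptidase cathepsin L), none with an adjusted p under 0.349. Ctsd was at 247 to 532 CPM in floxed and 400.4 to 501 CPM in KO libraries. Ctss, the cathepsin of antigen-presenting cells that trims the invariant chain of MHC class II, was at 72.0 to 141 and 85.8 to 139.8 CPM. Tpp1, a tripeptidyl peptidase lost in a form of neuronal ceroid lipofuscinosis, was the steadiest of the class in floxed libraries, with 44.5 ± 2.84 CPM (SD, n = 4) in floxed and 42.5 ± 2.73 CPM in KO libraries. Ctsz, a carboxypeptidase, was the least steady in floxed libraries (58.2 to 179.5 CPM) against 99.6 to 137 CPM in KO, and Ctsa, a carboxypeptidase that also holds neuraminidase and beta-galactosidase in a complex, was at 48.2 to 78.3 and 69.3 to 77.4 CPM. The groups of each of these 7 overlapped. Reads of Ctsd, Ctsz and Ctsa can also come from Gm49369, Nelfcd and Pltp, which overlap them.

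The glycosidases remove sugars from glycoproteins, glycogen and glycolipids. Of the 8, 6 had a log2 fold change below 0, with a median of -0.20, and none was called. Gla (ENSMUSG00000031266.6, chrX:134588149-134601125), the alpha-galactosidase A deficient in Fabry disease, was at 9.81, 6.66, 9.86 and 7.55 CPM in floxed and 5.66, 6.92, 6.28 and 6.38 CPM in KO libraries. Only KO replicate 3 reached into the floxed range, just above floxed replicate 3 (log2 fold change -0.42, SE 0.19, adjusted p = 0.24). Hexa (ENSMUSG00000025232.8, chr9:59539540-59565109), the alpha subunit of beta-hexosaminidase deficient in Tay-Sachs disease, was at 136, 57.2, 128 and 131 CPM in floxed and 94.7, 87.6, 77.1 and 78.2 CPM in KO libraries. Floxed replicate 3 was the lowest of all 8 and the other 3 floxed libraries were the highest 3, so that the log2 fold change of -0.42 (SE 0.26, adjusted p = 0.378) became -0.63 (adjusted p = 0.00756) without it.

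The other glycosidases had log2 fold changes from -0.25 to 0.0053. Neu1, the lysosomal sialidase, was at 37.1 to 104 CPM in floxed and 52.7 to 78.4 CPM in KO libraries, and Gaa, the acid alpha-glucosidase that breaks down glycogen, at 14.7 to 35.0 and 17.1 to 24.1 CPM. Gusb, the beta-glucuronidase, ran from 46.7 to 86.5 CPM in floxed libraries but only from 61.8 to 65.1 CPM in KO. Man2b1 and Manba, an alpha- and a beta-mannosidase of glycoprotein breakdown, had means of 209 and 48.5 CPM in floxed and 193 and 48.5 CPM in KO libraries, and Glb1, the beta-galactosidase whose activity is used as a stain for senescent cells, 37.3 and 37.4 CPM. The groups of all 6 overlapped. Reads of Manba, Glb1 and Hexa can also come from the overlapping genes Oaz2-ps, Tmppe and Tmem202. The total counts of these were 28.5%, 16.2% and 12.3% of those of Manba, Glb1 and Hexa.

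The lipid enzymes and cofactors had the lowest class median, -0.39, with 5 of 7 log2 fold changes below 0 (50.4% of all genes) and 3 of the 7 at an unadjusted p under 0.05 (21.8% of all genes). Asah1 (ENSMUSG00000031591.14, chr8:41340197-41374773), the acid ceramidase that splits ceramide into sphingosine and a fatty acid, was at 85.8, 51.4, 60.9 and 57.6 CPM in floxed and 48.1, 49.1, 38.4 and 35.4 CPM in KO libraries. All KO libraries were below all floxed libraries, with floxed replicate 3 and KO replicate 3 close to each other (log2 fold change -0.58, SE 0.20, adjusted p = 0.126). Ppt1 (ENSMUSG00000028657.14, chr4:122836242-122859175), the thioesterase that removes palmitate from proteins, was at 89.8, 51.3, 129 and 91.9 CPM in floxed and 59.0, 56.0, 53.1 and 62.1 CPM in KO libraries. Its KO libraries lay close together, just above floxed replicate 3 and below the other floxed libraries (log2 fold change -0.65, SE 0.24, adjusted p = 0.16). Cap1, which overlaps Ppt1, had a total count of 813% of that of Ppt1, and without strand the reads of the shared stretch cannot be assigned.

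Lipa, the acid lipase that frees cholesterol from its esters, was at 41.9 to 57.5 CPM in floxed and 36.4 to 42.5 CPM in KO libraries (log2 fold change -0.39, SE 0.14, adjusted p = 0.152), with 1 KO library above floxed replicate 3. Gm2a, the activator that lifts GM2 ganglioside out of the membrane for hexosaminidase, was at 87.6 to 250.1 and 129 to 151 CPM (log2 fold change -0.40, adjusted p = 0.457). Relative to Hexa per kb, Gm2a stood at 0.645 to 0.948 in floxed and 0.684 to 0.943 in KO libraries, and these ratios overlapped. Smpd1, the acid sphingomyelinase, was at 17.3 to 31.1 and 14.8 to 25.7 CPM. Psap was at 715 to 1517 and 1297 to 1397 CPM, and Npc2, the soluble protein that hands cholesterol to NPC1, at 103 to 214 and 174 to 196 CPM, with log2 fold changes of 0.057 and 0.12.

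The membrane proteins held 2 of the 3 members whose KO libraries were all below the floxed ones. Lamp2 (ENSMUSG00000016534.15, chrX:38401357-38456454) encodes a heavily glycosylated protein of the lysosomal membrane that takes part in chaperone-mediated autophagy and in the fusion of autophagosomes with lysosomes. It was at 301, 165, 238 and 214 CPM in floxed replicates 1, 3, 4 and 5 and at 135, 155, 106 and 106 CPM in KO replicates 2, 3, 4 and 5. KO replicates 4 and 5 were the lowest, and KO replicate 3 lay just below floxed replicate 3 (means 45.2% apart, log2 fold change -0.87, SE 0.22, adjusted p = 0.063). The difference was -0.62 within replicate numbers 1 to 3 and -1.08 within numbers 4 and 5 on the log2(CPM + 1) scale.

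Lamp1, the close relative of Lamp2, was at 274, 173, 288 and 304 CPM in floxed and 259.7, 259, 246 and 259.6 CPM in KO libraries (log2 fold change -0.022, SE 0.20, adjusted p = 0.966). Its groups overlapped, and the KO libraries lay within the floxed range. Within each library, the level of Lamp2 per kb over that of Lamp1 was 1.12, 0.975, 0.841 and 0.717 in floxed replicates 1, 3, 4 and 5 and 0.532, 0.613, 0.439 and 0.419 in KO replicates 2, 3, 4 and 5. Every KO library had a lower ratio than every floxed library, floxed replicate 3 included. The ratio was chosen after the values of both genes were seen and was not tested; reads of Grtp1, which overlaps Lamp1 with a total count of 73.6% of Lamp1's, can be in its denominator.

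Npc1 (ENSMUSG00000024413.14) encodes the multi-pass protein that exports cholesterol from the lysosome. It was at 41.6, 34.6, 32.1 and 31.8 CPM in floxed and 21.7, 25.5, 18.3 and 20.8 CPM in KO libraries. All KO libraries were below all floxed libraries, and floxed replicate 3 was second highest (means 38.4% apart, log2 fold change -0.70, SE 0.16). Its adjusted p of 0.0507 in edgeR was the smallest of the 33 members and lay just outside the threshold. It was 0.0496 with another scaling of the libraries and 0.171 with a replicate block, over a range of 0.00295 to 0.171 in all alternatives. The difference was the same size within replicate numbers 1 to 3 (-0.67) and within 4 and 5 (-0.68). Rmc1, which overlaps Npc1, had a total count of 135% of Npc1's, so part of these reads may belong to it. Relative to its partner Npc2, per kb, Npc1 stood at 0.152, 0.212, 0.0949 and 0.101 in floxed and 0.0701, 0.0926, 0.0603 and 0.0710 in KO libraries, with all KO ratios below all floxed ones, the nearest being 0.0949 and 0.0926; this ratio too was chosen after its values were seen.

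**Figure D5:**
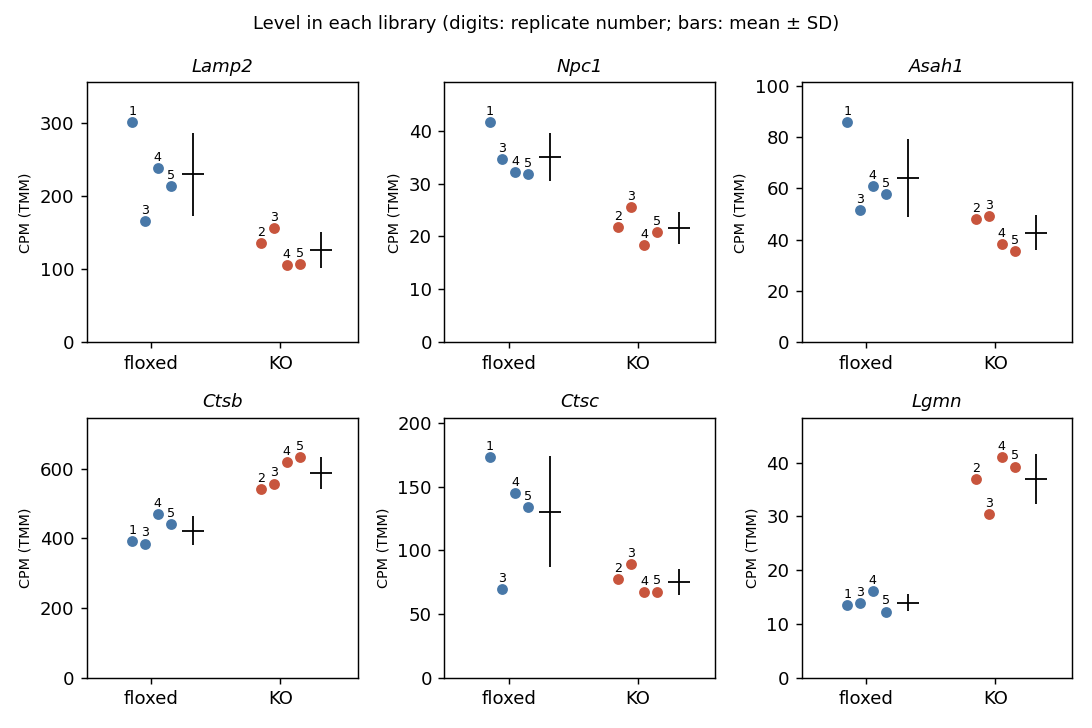
CPM in each library for Lamp2, Npc1, Asah1, Ctsb, Ctsc and Lgmn, with floxed in blue and KO in red, the replicate number at each point and the mean ± SD of 4 libraries beside them in black; every axis starts at 0. Floxed replicate 3 lies at 69.8 CPM for Ctsc, within the KO range, while for the other 5 genes the genotypes do not overlap.

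Among the other membrane proteins, Mcoln1, the calcium channel mucolipin 1, was at 16.8 to 22.1 CPM in floxed and 21.9 to 28.9 CPM in KO libraries (log2 fold change 0.31, SE 0.16, adjusted p = 0.29), with KO replicate 3 inside the floxed range. Cd63, a tetraspanin of late endosomes and granules, had 18.7, 10.1, 8.97 and 8.58 CPM in floxed and 26.0, 20.9, 7.31 and 8.19 CPM in KO libraries. Its high values were those of floxed replicate 1 and KO replicates 2 and 3, across genotypes, and its SE of 0.44 was the largest of the members. Cd68, a LAMP-family protein of macrophages, was at 22.7 to 60.4 and 35.6 to 49.0 CPM, and Scarb2, the receptor that carries glucocerebrosidase to the lysosome, at 43.7 to 59.0 and 37.5 to 46.4 CPM, with log2 fold changes of -0.24 and -0.19.

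The 2 regulators had small log2 fold changes and did not pass the test. Grn, the precursor of the granulins that is cut in the lysosome and binds prosaposin, was at 264, 135, 306 and 324 CPM in floxed and 252, 242, 316 and 313 CPM in KO libraries (log2 fold change 0.13, SE 0.27, adjusted p = 0.825). Tfeb was at 49.2, 29.8, 70.3 and 88.7 CPM in floxed and 48.0, 37.0, 77.2 and 73.8 CPM in KO libraries (log2 fold change -0.011, SE 0.35, adjusted p = 0.99). In both genotypes the Tfeb values of replicates 4 and 5 were above those of the lower numbers. With replicates 4 and 5 blocked together, the log2 fold change of Tfeb was 0.016 with an SE of 0.17 (adjusted p = 0.959, edgeR).

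The replicate numbers carried a difference of their own. With genotype in the model, numbers 4 and 5 were higher than numbers 1 to 3 at an adjusted p under 0.05 for Tfeb (log2 difference 0.92), Neu1 (0.68), Gaa (0.60) and Smpd1 (0.58), and lower for Cd63 (-1.16). That is 12.1% and 3.03% of the members, against 14.5% and 16.3% of all genes. What the numbers stand for is not given in the sources used here. The interaction of genotype with these number groups was called by edgeR for 0 of 21902 genes (1863 at an unadjusted p under 0.05), and its adjusted p ran from 0.57 to 0.982 over the members. Within the number groups, 16 of the 33 members had a genotype difference of the same sign in both. The share of all genes that did so was not computed, so nothing is read from this count.

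The promoters of the members were compared by sequence, since TFEB and its relatives bind the E-box core CACGTG and, in lysosomal genes, often the longer TCACGTGA. Each motif reads the same on both strands, and the longer contains the shorter. Promoters of 29 of the 33 members were found in RefSeq (GRCm38.p6), each with 250 bases before and 50 after the start. No promoter was matched for Ctsb, Asah1, Npc1 and Ctsh, so whether they hold the motif was not examined. CACGTG was in a promoter of 8 of these 29 genes (Ctsa, Ctsd, Ctsl, Gaa, Gla, Glb1, Lamp1 and Mcoln1), against 8.09% of all genes with a promoter there, and TCACGTGA in 4 (Ctsa, Ctsd, Gla and Mcoln1), against 1.12%. The median log2 fold change of KO over floxed was 0.05 over the 8 with CACGTG and -0.18 over the 21 without, which is a description over few genes and was not tested. Both medians leave out Ctsb (0.48), Asah1 (-0.58) and Npc1 (-0.70), whose libraries did not overlap between genotypes.

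Lamp1 and Lamp2 are shown because the ratio of their levels is given above, and Mcoln1 and Ctsd because they hold the longer motif. The 250 bases before the start are given 5′ to 3′ on the gene's strand, from RefSeq, GRCm38.p6, with CACGTG in capitals. They lie at chr8:13158911-13159160 (plus strand), chrX:38456461-38456710 (minus strand), chr8:3500269-3500518 (plus strand) and chr7:142387828-142388077 (minus strand).
Lamp1: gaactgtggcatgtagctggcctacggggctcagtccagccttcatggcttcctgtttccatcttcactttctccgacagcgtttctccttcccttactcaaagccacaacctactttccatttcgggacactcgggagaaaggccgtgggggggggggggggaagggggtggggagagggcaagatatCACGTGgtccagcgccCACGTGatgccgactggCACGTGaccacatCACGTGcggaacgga
Lamp2: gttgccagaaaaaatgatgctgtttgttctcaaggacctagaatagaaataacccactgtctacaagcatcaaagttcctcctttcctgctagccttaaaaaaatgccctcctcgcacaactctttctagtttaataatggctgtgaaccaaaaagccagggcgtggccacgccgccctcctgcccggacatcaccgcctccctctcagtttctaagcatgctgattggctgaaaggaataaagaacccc
Mcoln1: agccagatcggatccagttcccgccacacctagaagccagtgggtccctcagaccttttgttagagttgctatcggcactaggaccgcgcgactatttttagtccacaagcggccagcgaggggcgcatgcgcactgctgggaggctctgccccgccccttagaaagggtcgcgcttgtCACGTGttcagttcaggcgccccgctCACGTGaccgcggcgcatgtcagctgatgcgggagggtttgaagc
Ctsd: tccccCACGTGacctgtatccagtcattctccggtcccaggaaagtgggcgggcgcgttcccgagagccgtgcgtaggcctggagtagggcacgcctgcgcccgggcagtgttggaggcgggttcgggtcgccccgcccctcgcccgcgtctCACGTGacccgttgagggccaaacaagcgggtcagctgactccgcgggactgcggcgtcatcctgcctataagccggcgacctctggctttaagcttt
The Lamp1 stretch holds 4 copies of CACGTG, beginning 61, 45, 28 and 15 bases before the start, and the Lamp2 stretch none. Mcoln1 has copies 71 and 45 bases before the start, and Ctsd 245 and 98 bases before it. A match is a match of letters only.

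The rest of the lysosomal pathway was taken from 5 lists of 124 genes, of which 123 were tested. Of these, 1 was called higher and 1 lower by edgeR at an adjusted p under 0.05, against 1.22% and 1.75% of all genes, and the median log2 fold change was -0.10. Both called genes are hydrolases, from a list of 33. Lgmn (ENSMUSG00000021190.14, chr12:102394084-102439813), the asparaginyl endopeptidase legumain that processes cathepsins and antigens, was at 13.5, 13.8, 16.1 and 12.3 CPM in floxed and 37.0, 30.5, 41.0 and 39.3 CPM in KO libraries. Every KO library was above every floxed library (log2 fold change 1.41, SE 0.16, adjusted p = 0.00471); with a replicate block the adjusted p was 0.051. Among the macrophage markers, C1qa (14.9, 25.7, 32.6 and 27.3 CPM floxed, 56.4, 45.8, 71.3 and 67.5 CPM KO) and C1qc (15.5, 24.1, 23.1 and 24.9 and 46.4, 40.0, 58.6 and 62.7 CPM) were also called higher in KO. They were 2 of 16 in that list, against 1.22% of all genes called higher (adjusted p = 0.0334 and 0.0245, edgeR, up to 0.119 and 0.0881 with single libraries left out). The list went both ways, with 10 log2 fold changes above 0 and 6 below, from -1.02 to 1.26. Without floxed replicate 3, 7 of its genes were called higher and 5 lower, against 8.90% and 8.64% of all genes. The macrophage marker Adgre1 was at 19.7 to 33.1 CPM in floxed and 22.9 to 39.0 CPM in KO libraries. The part of these markers in the value of Lgmn was not tested. Arsg (ENSMUSG00000020604.13, chr11:109473374-109573330), an arylsulfatase of heparan sulfate breakdown, was at 47.4, 32.9, 37.5 and 40.4 CPM in floxed and 24.4, 24.4, 24.5 and 24.0 CPM in KO libraries. The KO values were almost equal and all below the floxed ones (log2 fold change -0.70, SE 0.15, adjusted p = 0.0413, with a replicate block 0.171). With single libraries left out, this call held in 1 of 8 fits, the one without floxed replicate 3, and the adjusted p ran from 0.00356 to 0.145, whereas that of Lgmn held in 8 of 8. Slc16a6, which overlaps Arsg, had a total count of 318% of that of Arsg.

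No gene was called among 24 other lysosomal membrane proteins, 18 tested subunits of the proton pump V-ATPase, 28 genes of enzyme delivery, or 20 genes of mTORC1 and the TFE family. Their median log2 fold changes were -0.17, -0.043, -0.14 and -0.12. In the delivery list, 7 of 28 genes had non-overlapping libraries (14.8% of all genes did), 2 with KO above (7.10% of all genes) and 5 with KO below (7.66% of all genes). Igf2r, the cation-independent mannose 6-phosphate receptor, was at 46.0, 49.3, 42.5 and 52.2 CPM in floxed and 33.9, 31.2, 33.4 and 31.2 CPM in KO libraries (log2 fold change -0.55, SE 0.13, adjusted p = 0.053). Gnptab, a subunit of the phosphotransferase that starts the mannose 6-phosphate tag, was at 52.7, 55.5, 39.5 and 42.1 and 27.7, 35.7, 26.1 and 29.3 CPM (log2 fold change -0.68, SE 0.17, adjusted p = 0.0614). Both were chosen after their values were seen, neither passed the test, and M6pr, the cation-dependent receptor, overlapped between genotypes (91.4 to 129 and 96.8 to 110.2 CPM). Tfe3, a relative of Tfeb, was at 36.2 to 74.0 CPM in floxed and 49.4 to 61.4 CPM in KO libraries.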

How the data were processed

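The authors sorted LT-HSCs, prepared libraries from 100 ng of total RNA (NEBNext Ultra), sequenced them (HiSeq 2500), used FastQC and Trim Galore on the reads, and aligned to GRCm38/mm10 transcripts with Bowtie 2. The authors deposited one whole-number count per Ensembl transcript and library, not normalized. The tool that counted, its annotation and all versions are not given in the sources used here. The files, 7 of 8 separated by tabs under a comma-separated name, were recorded as another unit, although all 8 deposited files hold counts.

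Of 138930 transcripts, 138789 were found in GENCODE M21 (GRCm38). Each gene took the count of 1 transcript, the one whose total across libraries was highest. Deposited counts cover introns, exons and either strand: in 2500 of 2500 nested transcript pairs the outer count was at least the inner one in every library. Overlapping genes can therefore share reads. Library totals were 56661356 to 120858975 transcript counts. P-values measure the spread between 4 mice per genotype.

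In edgeR 4.0.16 under R 4.3.3, low counts were removed by filterByExpr, TMM factors were applied, and genotype was tested by the quasi-likelihood F-test (glmQLFTest), adjusted by Benjamini-Hochberg over all genes tested. On simulated data of 21603 genes, edgeR called 200 of 200 genes changed by 2.5 on the log2 scale, and 3.4% of its calls were false. The simulation gave all genes the same dispersion and held no outlying library and no difference between replicate numbers. Its changed genes were well counted, and the largest member change was smaller (-0.87, Lamp2). It therefore does not show how often changes of the members' size are found, or how many real calls are false. Alternatives used limma 3.58.1 and DESeq2 1.42.0, other scalings and filters, sums over transcripts, omitted gene classes, blocks and omitted libraries. Replicate numbers 3, 4 and 5 occur in both genotypes, in different mice, and the deviations of same-numbered libraries correlated at 0.427, 0.454 and 0.707, so the fit with a replicate block was also made; pairs with other numbers, such as floxed 5 and KO 4 (0.711), correlated as much.

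The members, gene lists and tests were chosen with earlier results of these data known. Per-library values were given for members called or not overlapping and for the 2 members of each class with the largest absolute log2 fold change, for Ociad1, and for called genes of the other lists; other genes named were chosen after their values were seen.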

Additional observations from a re-analysis of the deposited data

Results flagged for a closer look

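In 66 groups of 4 libraries (33 genes, 2 genotypes), 5 held a library far from the other 3 by Dixon's criterion at 95% on the log2(CPM + 1) scale, where chance at 1 in 20 gives 3.3. Floxed replicate 3 was the low library for Hexa (5.864, the others 7.006 to 7.093) and for Psap (9.483, the others 10.49 to 10.57), and it was the lowest floxed library in 27 of 33 members. Floxed replicate 1 was the high library for Scarb2 (5.908, the others 5.483 to 5.509). KO replicate 4 was high for Gusb (6.047, the others 5.973 to 5.983) and low for Lamp1 (7.947, the others 8.020 to 8.026), and both of these distances were small beside the spread between floxed libraries.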

How the results depend on the processing

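The 33 genes were refitted under 18 alternatives. Of 580 pairs of a gene and an alternative, 561 kept the side of the threshold, 19 became called and none was called in the opposite direction. In 13 genes the sign turned under at least 1 alternative, all with an absolute log2 fold change of at most 0.133 in the fit to all libraries. The number of genes past both thresholds was 0 in every alternative run. DESeq2's size factors in edgeR called 1 gene lower (Npc1), and so did leaving out haemoglobin genes (1, Npc1). The DESeq2 Wald test called 1 higher (Ctsb) and 2 lower (Lamp2 and Npc1), with 11.2% of all genes called. A block for numbers 4 and 5 called 1 higher (Ctsb) and 4 lower (Lamp2, Npc1, Lipa and Asah1), 15.2% of the members against 18.5% of all genes. Leaving out each library in turn gave 0 to 1 genes called higher, 0 to 8 called lower, 4 to 14 with non-overlapping libraries and a median log2 fold change of -0.22 to -0.03, and the upper ends of the 3 counts came from the fit without floxed replicate 3. With the replicate block (numbers 3, 4 and 5) 0 of the 33 genes and 48 of 21600 genes were called, with a median of -0.04 over the members. The calls of Lgmn, Arsg, C1qa and C1qc were lost with this block, and so were all 3 calls of the erythroid marker list. limma-voom, sums over transcripts, no filter and leaving out immunoglobulin genes called 0 members, and 2.21%, 2.79%, 1.92% and 2.30% of all genes. Leaving out overlapping genes kept 19 members, of which 0 were called, against 4.41% of all genes left. The cause of these changes was not tested. With SEs of 0.13 to 0.44, small changes of single genes were not detectable with 4 mice per genotype.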
